A study of Mus musculus with 12 samples.

Results

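Chemokines that attract lymphocytes, and some of their receptors, were followed through 12 RNA-seq libraries of MC38 tumours. The set held 10 genes, taken by symbol: Cxcl9, Cxcl10, Cxcl11 and their receptor Cxcr3, the pair Cxcl16 and Cxcr6, Xcl1, and Cxcl13, Cxcl12 and Cxcr4. Of these, 9 were among the 18609 genes listed for each library, and all 9 were among the 12164 genes that passed the filter on low values. Cxcl11 is not analysed here. MC38 is a mouse colon cancer line, grown here as tumours in C57BL/6 hosts. The 4 groups were TLR4 knockout hosts given Salmonella, wild-type hosts given Salmonella, TLR4 knockout hosts given phosphate-buffered saline (PBS), and wild-type hosts given PBS. All injections were intravenous and all tumours were taken after 1 day, with 3 libraries per group. The design asks how the tumour responds to Salmonella and whether that response needs TLR4 in the host, TLR4 being the receptor for bacterial lipopolysaccharide. Whether each library is a separate animal is not stated in the labels, so every p-value here reflects library-to-library spread, part of which may be technical. Neither the Salmonella strain, the dose nor the deleted part of Tlr4 is stated in the labels, and the knockout is of the host, while the labels give the tumour line no Tlr4 change.

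Chemokines are small secreted proteins that steer cells through receptors coupled to G proteins. CXCL9, CXCL10 and CXCL11 are induced by interferons and draw activated T cells and natural killer (NK) cells through CXCR3. CXCL16 exists as a membrane-bound and a shed ligand for CXCR6 on tissue T cells and NKT cells, and XCL1, made by NK cells and activated CD8 T cells, draws XCR1-bearing type 1 dendritic cells. CXCL12 and CXCL13 are called homeostatic because stromal cells make them without inflammation: CXCL12 retains leukocytes and their precursors through CXCR4, and CXCL13 draws B cells through CXCR5.

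Values were the deposited FPKM (fragments scaled by gene length and by library total), a level per length, and are given below in the order F-1, M-1, M-2, after the library titles. The letters are not explained in the labels and were not taken to pair libraries across groups. Libraries held 30512239 to 38764600 fragments on listed genes. Tlr4 was listed at 1.59 to 3.15 FPKM in the 6 knockout libraries and at 2.48 to 3.78 FPKM in the 6 wild-type libraries, and the ranges overlap, so with the deleted part unstated this level does not check the labels. The epithelial genes Krt8, Krt18 and Epcam stayed at or below 0.418, 0.0770 and 0.420 FPKM in every library, although the labels call the tissue colon cancer cells, and the leukocyte gene Ptprc lay at 8.04 to 24.4 FPKM. Among the wild-type Salmonella libraries M-2 stood apart from F-1 and M-1 (chi-square per gene of 145 and 175, against 56.7 between F-1 and M-1). Calls of the measured members that change without it are given with and without it, while other genes are given only with it.

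Salmonella moved 3 of the 9 measured genes in wild-type hosts: Cxcl13 and Cxcl12 rose and Xcl1 fell, at an adjusted p under 0.05 in limma. Of all tested genes 35.6% passed in that comparison, 18.6% higher and 17% lower (52.2% of the calls higher, or 30.8% with FPKM as deposited), so the share among the 9 was close to that of all genes. At an unadjusted p under 0.05 it was 5 of 9, against 47.4%. In bulk tumour RNA fewer cells of a type and less RNA per cell cannot be told apart. In knockout hosts 0 of 9 passed in limma, where 0.773% of all tested genes did. At an unadjusted p under 0.05 the count there was 3 of 9, against 19% of all tested genes, and voom on recovered fragments gave 0. Between knockout and wild-type hosts under Salmonella 3 of 9 passed, Cxcl13 and Cxcl12 lower and Xcl1 higher in knockout hosts, against 9.03% of all tested genes (5.65% lower and 3.39% higher; 37.5% of the calls higher, or 58.5% with FPKM as deposited), and 4 of 9 at an unadjusted p under 0.05, against 30.6%. Under PBS 0 of 9 differed between the hosts in limma, as did 0% of all tested genes, with 0 of 9 at an unadjusted p under 0.05 (1.42% of all tested genes) and 0 in voom. The interaction, which is the Salmonella effect in knockout hosts minus that in wild-type hosts, passed for 0 of 9 in limma, against 0.0247% of all tested genes. It passed for 2 of 9 at an unadjusted p under 0.05, against 14.4% of all tested genes, and for 0 of 9 in voom.

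The 3 libraries of one group lay wholly above or below those of the other for 4 of 9 genes in wild-type hosts (45.5% of all tested genes), 3 of 9 in knockout hosts (29.2%), 4 of 9 between hosts under Salmonella (26%) and 1 of 9 between hosts under PBS (7.64%). The median log2 fold change of the 9 was -0.60 in knockout hosts and -0.06 in wild-type hosts, against 0.00 in knockout and -0.01 in wild-type hosts over all tested genes.

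**Figure D1:**
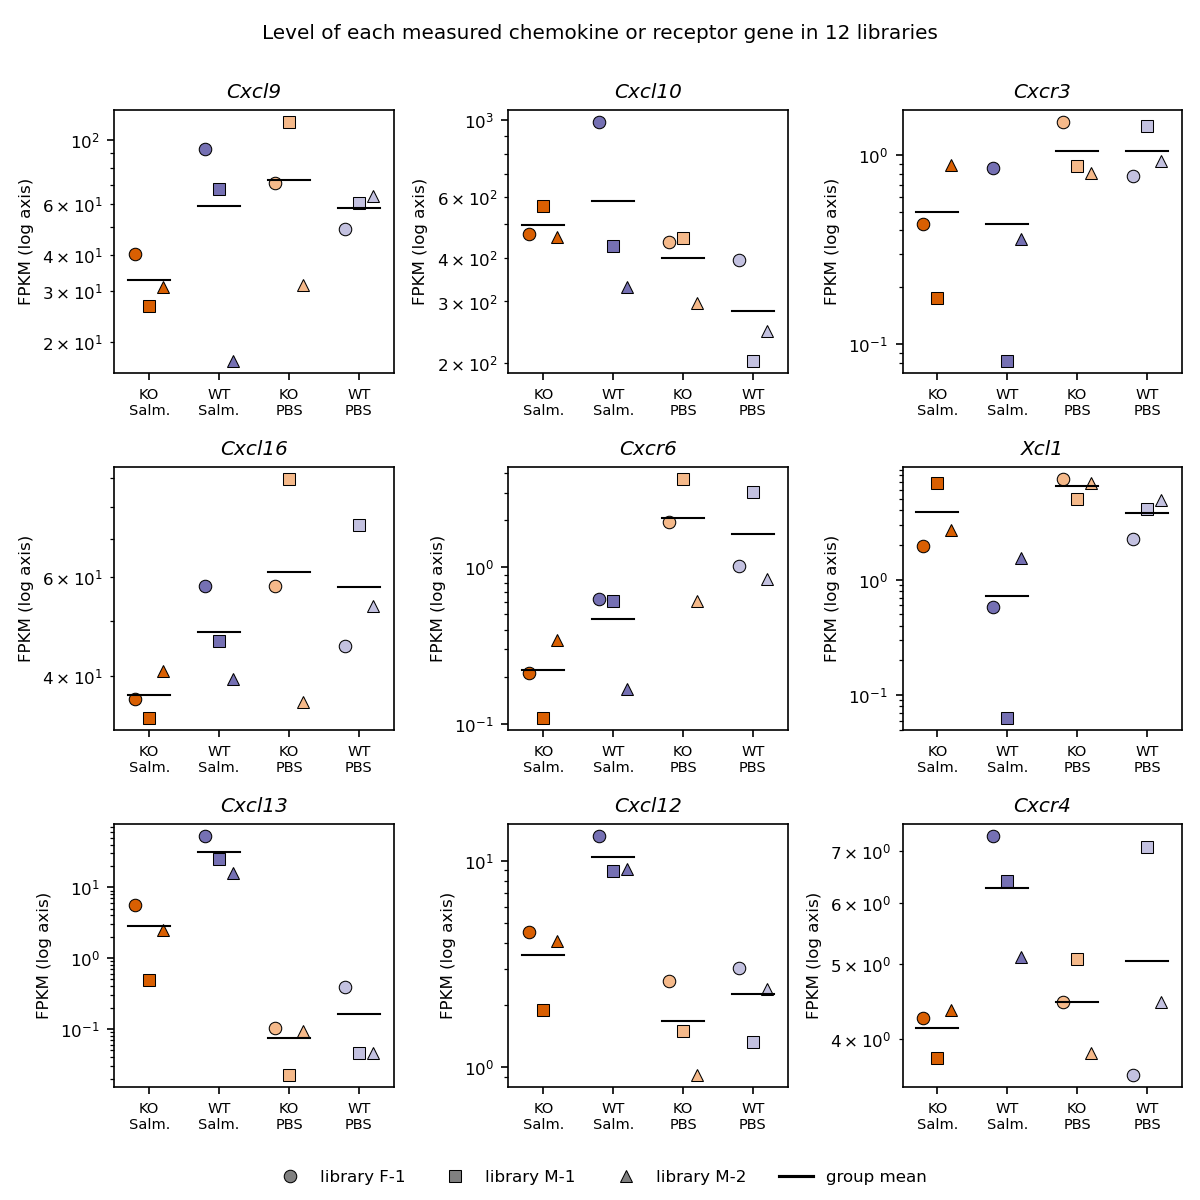
Level of each of the 9 measured genes in FPKM on a log axis, with 1 point per library (shape by title label) and a bar at the mean of each group of 3 libraries. The wild-type Salmonella libraries stand above all others for Cxcl13 and Cxcl12 and below all others for Xcl1, while the pairs of groups compared overlap for Cxcl16.

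Cxcl10, an interferon-induced CXCR3 ligand, was the most abundant of the 9 genes, ranking 156 of 18609 by mean level. It was listed at 470, 564 and 460 FPKM in knockout hosts given Salmonella, against 444, 458 and 296 FPKM in knockout hosts given PBS. In wild-type hosts it was listed at 986, 433 and 330 FPKM after Salmonella, against 395, 202 and 246 FPKM after PBS. The knockout groups do not overlap, with 460 FPKM as the lowest Salmonella value and 458 FPKM as the highest PBS value, whereas the wild-type groups do, and library F-1 is the highest of its group under either treatment in wild-type hosts. The log2 fold change for Salmonella was 0.37 ± 0.41 (SE) in knockout hosts with an adjusted p of 0.654 (limma), and 1.14 ± 0.41 in wild-type hosts with an adjusted p of 0.0517, so both missed the threshold. The wild-type value passed in the voom fit on recovered fragments (adjusted p = 0.0490), with the title letter as a term (0.0235), without library F-1 of wild-type PBS (0.0417) and without library M-2 of wild-type Salmonella (0.00850). Over all settings its adjusted p ran between 0.00850 and 0.155. Between hosts Cxcl10 did not pass under Salmonella (log2 difference -0.23, 95% interval -1.14 to 0.68) or under PBS (0.54, -0.37 to 1.45).

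Cxcl9, the CXCR3 ligand that is induced mainly by interferon-gamma, did not pass in any comparison. It was listed at 40.4, 26.8 and 31.1 FPKM in knockout hosts given Salmonella, against 71.0, 115 and 31.6 FPKM in knockout hosts given PBS. Wild-type hosts given Salmonella had 92.9, 68.0 and 17.2 FPKM, against 49.1, 60.8 and 64.3 FPKM in wild-type hosts given PBS. Both pairs of groups overlap, and library M-2 holds the lowest value among wild-type Salmonella and among knockout PBS libraries. The log2 fold change for Salmonella was -0.94 ± 0.63 in knockout hosts (adjusted p = 0.444, limma) and -0.07 ± 0.63 in wild-type hosts (adjusted p = 0.938). Under Salmonella Cxcl9 differed between knockout and wild-type hosts by -0.73 ± 0.63 on the log2 scale (adjusted p = 0.453), and by -1.55 without library M-2 of wild-type Salmonella (adjusted p = 0.0257), so 1 library decides that call.

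Cxcr3, the receptor of these ligands, was low, listed at 0.432, 0.176 and 0.890 FPKM in knockout hosts given Salmonella, against 1.5, 0.873 and 0.802 FPKM in knockout hosts given PBS, and at 0.853, 0.0815 and 0.361 FPKM in wild-type hosts given Salmonella, against 0.781, 1.43 and 0.938 FPKM in wild-type hosts given PBS. These values rest on 4 to 87 fragments per library, and the groups overlap in either host. The log2 fold changes were -0.65 ± 0.34 in knockout hosts and -0.70 ± 0.34 in wild-type hosts (adjusted p = 0.318 and 0.123, limma), and the wild-type value passed only without library F-1 of wild-type Salmonella (-1.07, adjusted p = 0.0419).

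Cxcl9 and Cxcl10 are neighbours on chromosome 5, at 92321347 to 92328079 and 92346638 to 92348889 in GENCODE M21 (GRCm38), both on the minus strand. The authors' build is not given in the sources used here, so these positions serve as annotation only. The 250 bases before each start, from RefSeq's GRCm38.p6 table, are shown because both genes are textbook interferon targets, with log2 fold changes in wild-type hosts of 1.14 for Cxcl10 and -0.07 for Cxcl9. Capitals mark the motif matches. Windows were present for 8 of the 10 genes.
Cxcl10 (chr5:92348890-92349139, minus strand): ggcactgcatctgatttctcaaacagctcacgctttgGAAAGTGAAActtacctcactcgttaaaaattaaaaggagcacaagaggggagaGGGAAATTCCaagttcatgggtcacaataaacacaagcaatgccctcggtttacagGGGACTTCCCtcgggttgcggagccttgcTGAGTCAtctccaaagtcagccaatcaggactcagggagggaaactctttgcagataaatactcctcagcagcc
Cxcl9 (chr5:92328080-92328329, minus strand): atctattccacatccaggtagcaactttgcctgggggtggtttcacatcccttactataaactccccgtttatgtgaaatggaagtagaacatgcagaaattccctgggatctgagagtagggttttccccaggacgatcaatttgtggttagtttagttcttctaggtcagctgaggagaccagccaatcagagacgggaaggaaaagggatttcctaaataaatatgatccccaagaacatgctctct

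The 4 motifs searched on both strands were the core of the interferon-stimulated response element (ISRE, read as GAAA, any 2 bases and GAAA again), the gamma-activated site (GAS, TTCNNNGAA), AP-1 (TGANTCA) and kappa B. Kappa B was read as GGGRNWYYCC, with R for A or G, W for A or T and Y for C or T. The Cxcl10 window held an ISRE core 213 to 204 bases before the start, kappa B matches at 159 to 150 and 103 to 94 bases, and an AP-1 match at 74 to 68 bases, which was found on both strands because TGANTCA reads the same on each. The Cxcl9 window held none of these letters. Of 32851 mouse promoter windows of that length 2.98% held the ISRE core, 7.02% GAS, 6.75% AP-1 and 3.9% kappa B. A match is a description of letters, not a site in use.

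Cxcl16, the ligand that macrophages and dendritic cells carry on their surface or shed, varied least after Cxcr4 among the 9 genes, by 2.67-fold from the lowest to the highest library. Its level was 36.4, 33.6 and 40.8 FPKM in knockout hosts given Salmonella, against 57.8, 89.7 and 35.9 FPKM in knockout hosts given PBS, and 57.7, 46.1 and 39.5 FPKM in wild-type hosts given Salmonella, against 45.2, 74.3 and 53.2 FPKM in wild-type hosts given PBS. All 4 groups overlap with a neighbour in level. The log2 fold change was -0.60 ± 0.31 in knockout hosts (adjusted p = 0.322, limma) and -0.06 ± 0.31 in wild-type hosts (0.890), and the difference between hosts under Salmonella was -0.52 with a 95% interval of -1.20 to 0.17.

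Cxcr6, the receptor of CXCL16 on tissue T cells, was listed at 0.212, 0.109 and 0.343 FPKM in knockout hosts given Salmonella, against 1.95, 3.67 and 0.609 FPKM in knockout hosts given PBS. In wild-type hosts it was listed at 0.631, 0.606 and 0.168 FPKM after Salmonella, against 1.02, 3.02 and 0.840 FPKM after PBS. The Salmonella libraries lay below the PBS libraries of the same host in each genotype without overlap, on 8 to 267 fragments per library. The log2 fold changes nevertheless missed the threshold, at -1.62 ± 0.48 in knockout hosts (adjusted p = 0.121, limma) and -0.91 ± 0.48 in wild-type hosts (adjusted p = 0.157). In knockout hosts the value passed without library M-2 of knockout PBS (-2.11, adjusted p = 0.0323).

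Xcl1, the attractant of XCR1-bearing dendritic cells, fell in wild-type hosts given Salmonella and was the 1 measured gene called higher in knockout than in wild-type hosts under Salmonella. It was listed at 1.96, 6.92 and 2.71 FPKM in knockout hosts given Salmonella, against 7.46, 4.97 and 6.89 FPKM in knockout hosts given PBS. In wild-type hosts it was listed at 0.576, 0.0633 and 1.53 FPKM after Salmonella, against 2.27, 4.08 and 4.94 FPKM after PBS. The wild-type Salmonella libraries lie below every other library, and the value of 0.0633 FPKM is 1 fragment. The knockout groups overlap through library M-1 of knockout Salmonella, and the knockout PBS libraries lie just above the wild-type PBS libraries, without overlap. The log2 fold change for Salmonella was -0.79 ± 0.49 in knockout hosts (adjusted p = 0.407, limma) and -1.85 ± 0.49 in wild-type hosts (adjusted p = 0.0175), and their difference was 1.05 ± 0.69 (adjusted p = 0.464 for the interaction), so the effects were not shown to differ.

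Under Salmonella Xcl1 was higher in knockout than in wild-type hosts by 1.79 ± 0.49 on the log2 scale with an adjusted p of 0.0482 (limma). That call was lost in 7 of 9 other settings and when any 1 of 11 of the 12 libraries was left out, with an adjusted p of up to 0.170, so it stands at the edge of the threshold. The fall in wild-type hosts passed in all 9 other settings. It was lost without library M-1 or M-2 of wild-type PBS (adjusted p = 0.0533 and 0.0641), and without library F-1 or M-1 of wild-type Salmonella (0.0541 and 0.0600). Under PBS the log2 difference between hosts was 0.74 ± 0.49 (adjusted p = 1).

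**Figure D2:**
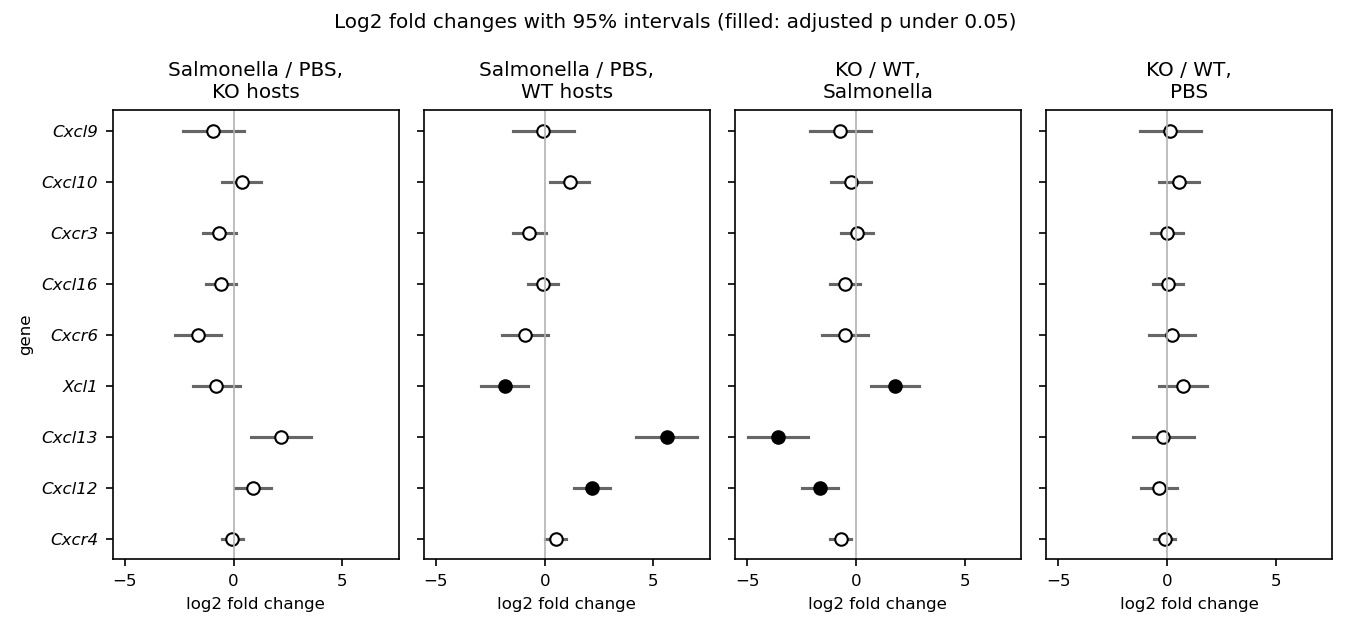
Log2 fold changes of the 9 measured genes with 95% intervals (lines) from limma in 4 comparisons, each panel the first-named group over the second; filled points passed an adjusted p of 0.05. Cxcl13, Cxcl12 and Xcl1 are filled in wild-type hosts and between hosts under Salmonella, with opposite signs in those panels, and no point is filled in knockout hosts or under PBS.

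Cxcl13, the B cell attractant, changed most of the 9 genes on this scale. Its level was 5.59, 0.488 and 2.53 FPKM in knockout hosts given Salmonella, against 0.104, 0.0224 and 0.0945 FPKM in knockout hosts given PBS. In wild-type hosts it was listed at 53.0, 25.3 and 15.7 FPKM after Salmonella, against 0.391, 0.0455 and 0.0464 FPKM after PBS. The Salmonella libraries lie above all PBS libraries in both hosts, and each wild-type Salmonella library lies above each knockout Salmonella library. Under PBS the gene was near the limit of detection, with 4, 1 and 4 fragments in knockout hosts and 17, 2 and 2 in wild-type hosts, and these groups overlap. The order of group means was thus wild-type Salmonella, knockout Salmonella, then the PBS groups together.

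In knockout hosts the log2 fold change of Cxcl13 for Salmonella was 2.19 ± 0.62 on the log2(FPKM + 0.5) scale (adjusted p = 0.115, limma) and 4.71 in voom on recovered fragments (adjusted p = 0.394), neither past the threshold. In wild-type hosts Cxcl13 rose by 5.60 ± 0.62 (adjusted p = 0.000658, limma), and this passed under all 9 other settings and with each of the 12 libraries left out. The scale understates changes of genes this low, and voom gave 8.12 in wild-type hosts (adjusted p = 0.0295). Under Salmonella Cxcl13 was lower in knockout than in wild-type hosts by a log2 difference of -3.57 ± 0.62 (adjusted p = 0.0159, limma). That call was lost when only the groups compared were fitted (adjusted p = 0.103), and without library F-1 (0.0751) or M-1 (0.0676) of wild-type Salmonella or library M-1 (0.0625) or M-2 (0.0548) of knockout Salmonella, with the log2 difference between -4.20 and -2.87 over all libraries left out. The interaction was -3.41 ± 0.88 (adjusted p = 0.221), and it passed only without library M-2 of wild-type Salmonella (-3.90, adjusted p = 0.0197).

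Cxcl12, the stromal ligand of CXCR4, was listed at 4.54, 1.90 and 4.10 FPKM in knockout hosts given Salmonella, against 2.63, 1.5 and 0.916 FPKM in knockout hosts given PBS. In wild-type hosts it was listed at 13.2, 8.89 and 9.07 FPKM after Salmonella, against 3.04, 1.32 and 2.40 FPKM after PBS. The wild-type Salmonella libraries lie above every other library, while the other 3 groups overlap one another. The log2 fold change was 0.90 ± 0.37 in knockout hosts (adjusted p = 0.223, limma). Cxcl12 rose by 2.19 ± 0.37 on the log2 scale in wild-type hosts (adjusted p = 0.0030), which passed under all 9 other settings and with each library left out. Under Salmonella it was lower in knockout hosts by a log2 difference of -1.64 ± 0.37 (adjusted p = 0.0297). This call was lost when only the groups compared were fitted (adjusted p = 0.0945) and without any of the same 4 libraries as for Cxcl13: F-1 (0.129) or M-1 (0.10) of wild-type Salmonella, and M-1 (0.101) or M-2 (0.0741) of knockout Salmonella. The interaction was -1.29 ± 0.53 (adjusted p = 0.316), so the effects in the hosts were not shown to differ.

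Cxcr4, the receptor through which CXCL12 holds leukocytes in place, moved least of the 9 genes, by 2.04-fold from the lowest to the highest library. The libraries held 4.26, 3.78 and 4.36 FPKM in knockout hosts given Salmonella, against 4.47, 5.09 and 3.85 FPKM in knockout hosts given PBS, and 7.33, 6.42 and 5.11 FPKM in wild-type hosts given Salmonella, against 3.6, 7.09 and 4.47 FPKM in wild-type hosts given PBS. Each pair of treatments overlaps, and the knockout Salmonella libraries lie below the wild-type Salmonella libraries without overlap. The log2 fold change for Salmonella was -0.07 ± 0.22 in knockout hosts (adjusted p = 0.892, limma) and 0.51 ± 0.22 in wild-type hosts (0.0940). The wild-type value passed without library M-1 of wild-type PBS (0.75, adjusted p = 0.0267) and without library M-2 of wild-type Salmonella (0.73, 0.0135). Between hosts under Salmonella the log2 difference was -0.69 ± 0.22 (adjusted p = 0.0703), and it passed without library M-1 of wild-type PBS (-0.69, 0.0461) and without library M-2 of wild-type Salmonella (-0.91, 0.00664).

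**Figure D3:**
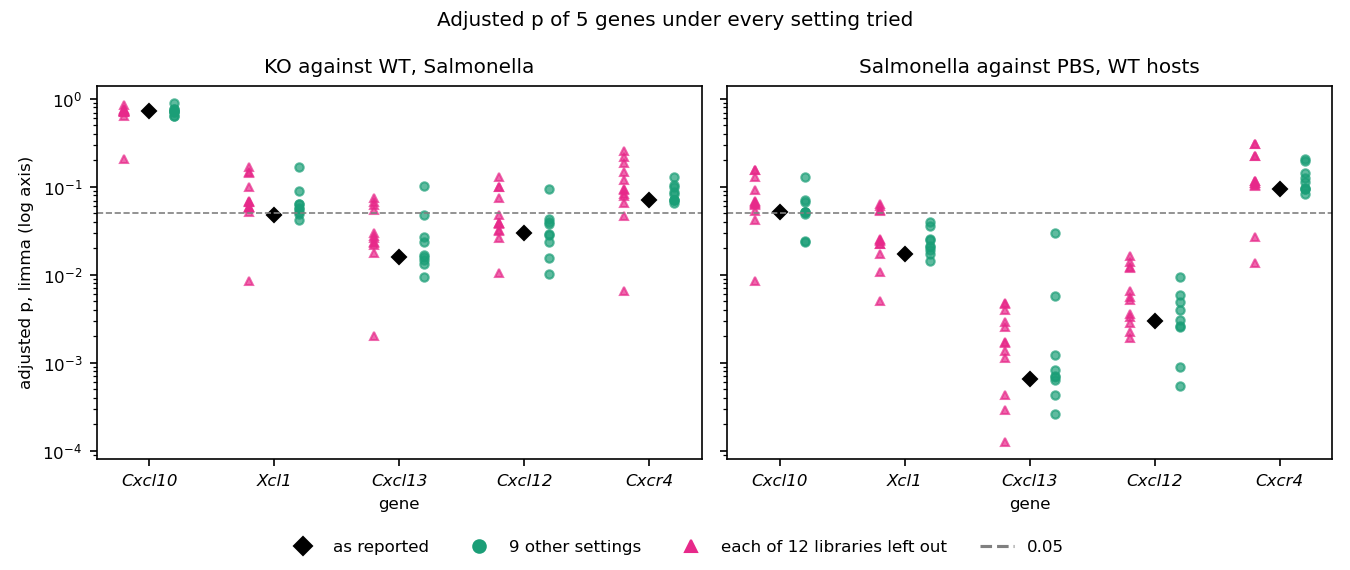
Adjusted p (limma, log axis, dashed line at 0.05) of 5 genes as reported (diamonds), under 9 other settings (circles) and with each of the 12 libraries left out (triangles), for knockout against wild type under Salmonella and for Salmonella over PBS in wild-type hosts. Cxcl13 and Cxcl12 stay under the line in wild-type hosts in all 21 other fits, whereas between hosts both cross it in 5 of 21.

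The windows before Cxcl13 and Cxcl12 are shown because these genes rose together, and they lie on different chromosomes, Cxcl13 on chromosome 5 at 95956951 to 95961068 and Cxcl12 on chromosome 6 at 117168535 to 117181367 (GENCODE M21, plus strand). Sequences are from RefSeq's GRCm38.p6 table.
Cxcl13 (chr5:95956689-95956938, plus strand): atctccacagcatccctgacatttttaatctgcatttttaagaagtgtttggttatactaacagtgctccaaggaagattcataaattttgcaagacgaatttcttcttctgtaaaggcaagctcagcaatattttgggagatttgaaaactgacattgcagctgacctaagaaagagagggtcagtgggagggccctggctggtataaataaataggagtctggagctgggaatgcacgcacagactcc
Cxcl12 (chr6:117168285-117168534, plus strand): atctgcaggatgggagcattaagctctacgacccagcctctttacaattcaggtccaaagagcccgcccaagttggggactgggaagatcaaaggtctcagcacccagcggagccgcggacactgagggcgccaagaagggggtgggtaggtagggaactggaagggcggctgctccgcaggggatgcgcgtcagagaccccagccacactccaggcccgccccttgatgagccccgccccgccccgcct

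Neither window holds the letters of the ISRE core, GAS, AP-1 or kappa B motifs, nor do the windows of Cxcr3, Cxcr6, Xcl1 and Cxcr4, so of the 8 windows only that of Cxcl10 had a match. This says only that these letters are not in 250 bases. Of these bases, 122 for Cxcr3, 43 for Xcl1 and 2 for Cxcr6 lie in annotated exons.

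Of 11 genes chosen as partner receptors, scavenging receptors and processing enzymes of these chemokines, 10 were listed and 5 passed the filter. In wild-type hosts 2 of 5 rose with Salmonella and 0 fell, where 35.6% of all tested genes passed. In knockout hosts 0 of 5 passed in limma, against 0.773%, and 1 had an unadjusted p under 0.05, against 19%. Under Salmonella 2 of 5 were lower in knockout than in wild-type hosts, against 5.65% of all tested genes. Ackr3, the scavenging receptor of CXCL12, averaged 9.09 ± 1.54 FPKM in knockout hosts and 15.0 ± 2.69 FPKM in wild-type hosts given Salmonella, against 6.48 ± 1.29 and 7.90 ± 0.981 FPKM in knockout and wild-type hosts given PBS (SD, n = 3 each). Its log2 fold change was 1.06 ± 0.18 in wild-type hosts (adjusted p = 0.00254, limma) and -0.85 ± 0.18 between knockout and wild-type hosts under Salmonella (0.0224). Mmp9, a protease that can cleave chemokines, averaged 11.5 ± 1.43 FPKM in knockout hosts and 33.1 ± 13.9 FPKM in wild-type hosts given Salmonella, against 8.98 ± 3.51 and 7.50 ± 1.06 FPKM in knockout and wild-type hosts given PBS, and rose by 2.19 ± 0.37 on the log2 scale in wild-type hosts (adjusted p = 0.0030). It is also a neutrophil gene and is on the neutrophil marker list.

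The receptors that pair with XCL1 and CXCL13 were too low to be tested. Xcr1 averaged 0.0434 ± 0.0179 FPKM in knockout hosts given Salmonella, against 0.290 ± 0.206 FPKM in knockout hosts given PBS, and 0.0190 ± 0.0184 FPKM in wild-type hosts given Salmonella, against 0.252 ± 0.136 FPKM in wild-type hosts given PBS (SD, n = 3 each). Cxcr5 averaged 0.174 ± 0.0177 FPKM in knockout hosts given Salmonella, against 0.0778 ± 0.0322 FPKM in knockout hosts given PBS, and 0.393 ± 0.361 FPKM in wild-type hosts given Salmonella, against 0.0676 ± 0.0217 FPKM in wild-type hosts given PBS.

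Of 20 other lymphocyte-attracting chemokine and receptor genes 10 were tested. In wild-type hosts Ccl22, Ccl25, Ccl5 and Cxcl14 rose and Cx3cl1 and Cx3cr1 fell, where 35.6% of all tested genes passed. In knockout hosts Cx3cl1 fell, where 0.773% of all tested genes passed. Under Salmonella Ccl5 was lower in knockout than in wild-type hosts, against 5.65% of all tested genes. Ccl5, an attractant of T cells and monocytes, averaged 97.3 ± 9.36 FPKM in knockout hosts and 365 ± 210 FPKM in wild-type hosts given Salmonella, against 116 ± 34.0 and 101 ± 31.3 FPKM in knockout and wild-type hosts given PBS (SD, n = 3 each). Its log2 fold change was 1.87 ± 0.49 in wild-type hosts (adjusted p = 0.0162, limma) and -1.86 ± 0.49 between knockout and wild-type hosts under Salmonella (0.0440). Cx3cl1, a membrane-bound chemokine, fell by 1.44 ± 0.26 on the log2 scale in knockout hosts (adjusted p = 0.0402) and by 1.28 ± 0.26 in wild-type hosts (0.00533). Without library F-1 of knockout PBS, or F-1 of knockout Salmonella, 0 of all tested genes were called lower in knockout hosts. The knockout call of Cx3cl1 was thus lost in both fits.

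Of 23 genes of the interferon-gamma and related signals upstream of the CXCR3 ligands 20 were tested. Among those that passed in wild-type hosts, where 35.6% of all tested genes did, Ifnar2 and Socs3 rose and Il12rb1 fell. In knockout hosts 0 of 20 passed in limma, against 0.773%, and 6 had an unadjusted p under 0.05, against 19%. Under Salmonella Ifnar2 was lower in knockout than in wild-type hosts, against 5.65% of all tested genes. The list's median log2 fold change was -0.04 in knockout hosts and -0.05 in wild-type hosts. Ifng, the gene of interferon-gamma, averaged 0.367 ± 0.227 FPKM in knockout hosts given Salmonella, against 3.35 ± 3.57 FPKM in knockout hosts given PBS, and 0.236 ± 0.178 FPKM in wild-type hosts given Salmonella, against 1.30 ± 0.604 FPKM in wild-type hosts given PBS (SD, n = 3 each). Its adjusted p was 0.233 in knockout and 0.198 in wild-type hosts (limma).

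Markers of neutrophils, most of endothelial cells and some of fibroblasts were highest in wild-type hosts given Salmonella, as Cxcl13 and Cxcl12 were. The 12 neutrophil genes summed to 550 to 976 FPKM in knockout hosts given Salmonella and 2804 to 18940 FPKM in wild-type hosts given Salmonella, against 17.8 to 21.2 and 18 to 30.8 FPKM in knockout and wild-type hosts given PBS. With Salmonella 6 of 12 rose in knockout hosts and 12 of 12 in wild-type hosts. Under Salmonella 10 of 12 were lower in knockout than in wild-type hosts. Of all tested genes 0.773% passed in knockout hosts, 35.6% in wild-type hosts and 9.03% between hosts under Salmonella. At an unadjusted p under 0.05 the share in knockout hosts was 19%. The highest neutrophil sum, 18940 FPKM, was in library M-1 of wild-type Salmonella, against 3112 FPKM in F-1 and 2804 FPKM in M-2. Such a sum follows its most abundant genes and does not show in which library each of the 12 was highest. Cxcl13 and Cxcl12 were highest in F-1. Ly6g and Ngp were at 0 in all 3 knockout PBS libraries. The 10 endothelial genes summed to 64.0 to 81.1 FPKM in knockout hosts and 99.0 to 123 FPKM in wild-type hosts given Salmonella, against 51.9 to 66.0 and 45.8 to 65 FPKM in knockout and wild-type hosts given PBS. Of them 8 rose in wild-type hosts, 0 passed in knockout hosts in limma (3 at an unadjusted p under 0.05) and 7 were lower in knockout than in wild-type hosts under Salmonella. The 12 fibroblast and pericyte genes summed to 883 to 1166 FPKM in knockout hosts and 1504 to 1992 FPKM in wild-type hosts given Salmonella, against 873 to 1235 and 1012 to 1238 FPKM in knockout and wild-type hosts given PBS. With Salmonella 0 of 12 passed in knockout hosts in limma (5 at an unadjusted p under 0.05), and in wild-type hosts Col1a1, Col1a2, Dcn and Thy1 rose and Cspg4 and Pdgfrb fell. Under Salmonella Col1a1, Col3a1, Dcn and Thy1 were lower in knockout than in wild-type hosts and 0 of 12 were higher. The calls of list genes were not followed through the other fits. Between hosts under Salmonella, 12 of all tested genes passed with the groups compared alone, and 10 without library F-1 of wild-type Salmonella. The host calls of these lists thus cannot all hold in those fits. For Salmonella in knockout hosts, 5 of all tested genes passed without library F-1 of knockout PBS and 4 without library F-1 of knockout Salmonella. The 6 neutrophil calls in knockout hosts thus cannot all hold without either library. The part of these cells in the Cxcl13 and Cxcl12 results was not tested.

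The 16 T cell genes summed to 13.7 to 24.6 FPKM in knockout hosts given Salmonella, against 20.8 to 51.8 FPKM in knockout hosts given PBS, and to 19.0 to 46.9 FPKM in wild-type hosts given Salmonella, against 27.0 to 44.5 FPKM in wild-type hosts given PBS. Of 13 tested, 3 passed in wild-type hosts, against 35.6% of all tested genes: Cd8a and Cd8b1, the chains of CD8, fell, and Thy1, which is also a fibroblast gene, rose. Thy1 makes up a large part of these sums, so they need not follow the other T cell genes. Its mean was 10.8 and 13.1 FPKM in knockout hosts given Salmonella and PBS, and 22.6 and 12.9 FPKM in wild-type hosts. In knockout hosts 0 of 13 passed in limma, against 0.773% of all tested genes, and 6 of 13 had an unadjusted p under 0.05, against 19%. The median log2 fold change of the 13 was -0.73 in knockout hosts and -0.39 in wild-type hosts. The 11 NK cell genes, which mark one source of XCL1, summed to 28.6 to 46.2 FPKM in knockout hosts given Salmonella, against 33.2 to 121 FPKM in knockout hosts given PBS, and to 27.9 to 58.1 FPKM in wild-type hosts given Salmonella, against 41.2 to 73.0 FPKM in wild-type hosts given PBS. None of the 11 passed in either host in limma. At an unadjusted p under 0.05 the count was 2 in knockout hosts, against 19% of all tested genes, and 1 in wild-type hosts, against 47.4%. The 7 B cell genes, whose cells CXCL13 attracts, summed to 8.02 to 10.9 FPKM in knockout hosts given Salmonella, against 9.0 to 10.7 FPKM in knockout hosts given PBS, and to 4.59 to 8.91 FPKM in wild-type hosts given Salmonella, against 7.30 to 10.2 FPKM in wild-type hosts given PBS. Of 4 tested, 0 passed for Salmonella in limma in either host, with 2 in knockout and 1 in wild-type hosts at an unadjusted p under 0.05. Between hosts under Salmonella 1 of the 4, Pax5, was higher in knockout hosts, against 3.39% of all tested genes. In that comparison Thy1 alone of the tested T cell genes was lower, and 0 of the 11 NK cell genes passed.

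Markers of type 1 dendritic cells, the cells that XCL1 attracts, summed to 14.2 to 15.1 FPKM in knockout hosts given Salmonella, against 14.4 to 34.3 FPKM in knockout hosts given PBS, and to 14.8 to 17.4 FPKM in wild-type hosts given Salmonella, against 18.2 to 25.3 FPKM in wild-type hosts given PBS. Very little of these sums came from Xcr1 and Clec9a, which averaged at most 0.290 and 0.132 FPKM in a group and were not tested. Of the 8 genes 4 were tested and 0 passed in either host in limma, with 1 in each at an unadjusted p under 0.05. At that level it was 19% of all tested genes in knockout and 47.4% in wild-type hosts. The 12 macrophage and monocyte genes, from cells that make CXCL9, CXCL10 and CXCL16, summed to 595 to 817 FPKM in knockout hosts given Salmonella, against 636 to 1298 FPKM in knockout hosts given PBS, and to 492 to 786 FPKM in wild-type hosts given Salmonella, against 703 to 1161 FPKM in wild-type hosts given PBS. In wild-type hosts Itgam and Mrc1 rose and Ccr2 fell, where 35.6% of all tested genes passed. In knockout hosts 0 of 12 passed in limma, against 0.773%. Between hosts under Salmonella Itgam was lower in knockout hosts and 0 of 12 were higher. The part of these cells in the levels of Xcl1, Cxcr6, Cxcr3, Cxcl9 and Cxcl16 was not tested.

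**Figure D4:**
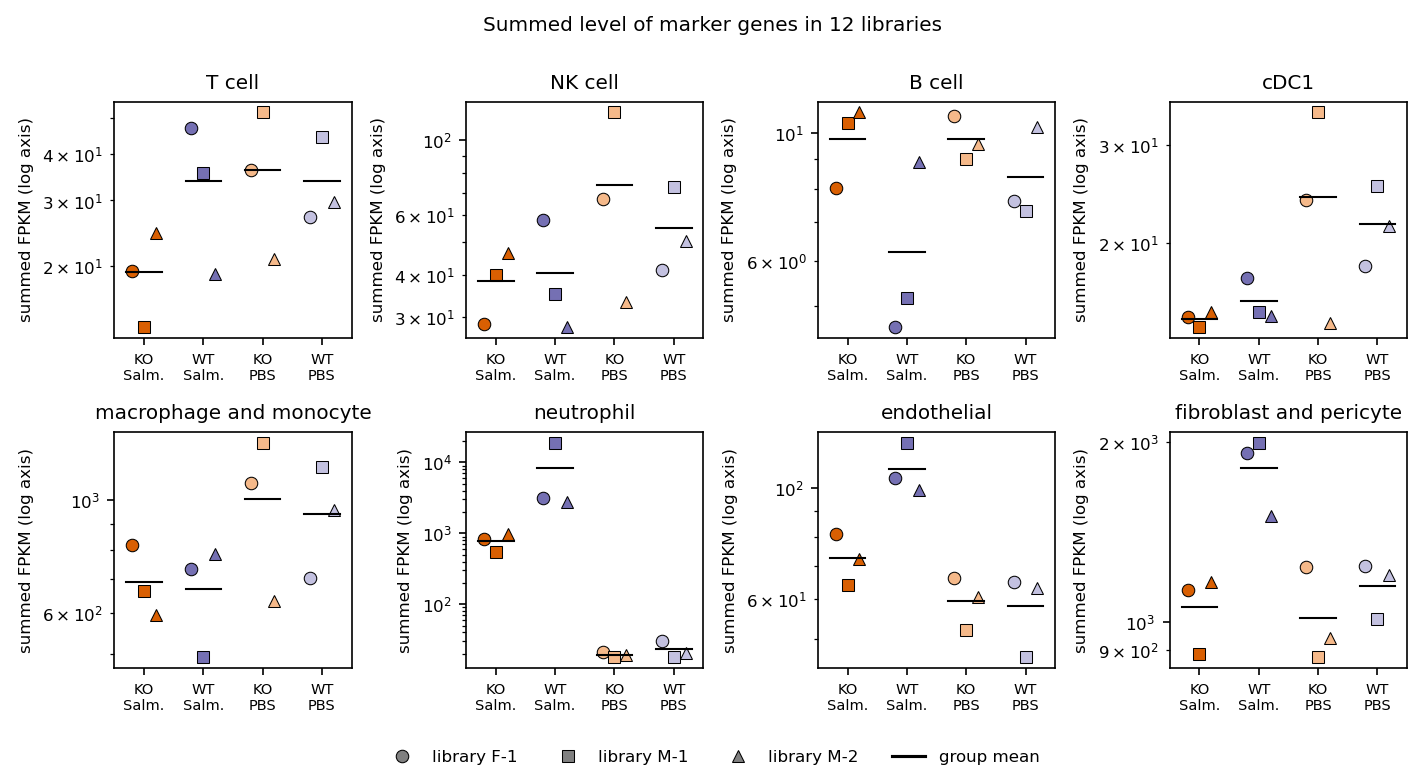
Summed FPKM of 8 marker lists on a log axis, with 1 point per library and a bar at the mean of each group of 3 libraries (cDC1, type 1 dendritic cells). The neutrophil, endothelial and fibroblast sums are highest in the 3 wild-type Salmonella libraries, while the groups overlap for T cell and NK cell sums. Thy1, which is on both the T cell and the fibroblast list, makes up a large part of the T cell sum.

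The genes whose log2 levels were most like those of each chemokine over the 12 libraries were found by Pearson correlation among 10118 genes, as a description, since the libraries share their groups. Closest to Cxcl13 were Steap4 (r = 0.99), Angptl4 (0.99) and Hp (0.99), and closest to Cxcl12 were Cyp1b1 (0.98), Serpina3n (0.97) and Cfp (0.96). Cxcl12 and Cxcl13 were themselves alike (0.96). Closest to Cxcl10 were Nmi (0.94), Dnaja2 (0.93) and Atp1b3 (0.91), and closest to Cxcl9 were Ubd (0.95), Serpina3g (0.93) and Ptprcap (0.93), while Cxcl9 and Cxcl10 were less alike (0.32). Serpina3g also led for Cxcl16 (0.96), followed by Rassf5 (0.95) and Hvcn1 (0.93). Closest to Cxcr6 were H2-M3 (0.95), Cd3g (0.95), a chain of the T cell receptor complex, and Nkg7 (0.94), a granule protein of cytotoxic lymphocytes. Closest to Cxcr4 were Serpinb6b (0.96), Sla (0.95) and Id2 (0.94), to Xcl1 Zfp949 (0.96), Ncaph (0.95) and Baiap2 (0.95), and to Cxcr3 Mlycd (0.87), Arrdc3 (0.86) and Stat5b (0.85).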

How the data were processed

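RNA-seq was made from MC38 tumours in 12 libraries, in 4 groups of 3 read from the genotype and treatment labels. Total RNA was isolated with TRIzol and made into libraries with a VAHTS Universal V6 kit, per the labels' protocols. The submitters' processing notes name fastp, HISAT2 and HTSeq without versions. Genome build, annotation and strand setting: not given in the sources used here. Each library's deposited table holds FPKM made by the authors. That unit was inferred from the values, since for all 18222 genes above 0 in some library the FPKM corresponded to whole fragments (tolerance 0.01) once 1 length per gene was assumed, which also gave the fragments per library. Another 387 genes were at 0 in every library. The limit that a count of 0 allows is 3 fragments, which covers counting error only.

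The test was limma 3.58.1 (R 4.3.3), run on log2 of FPKM divided by a scaling factor, plus 0.5, so a log2 fold change understates changes of low genes. It took the 12164 genes that reached 0.5 FPKM in 3 or more libraries. Scaling used trimmed means of log ratios over these genes (30% of ratios and 5% of levels trimmed), and factors ran between 0.851 and 1.05. The model had 1 mean per group over all 12 libraries (8 residual degrees of freedom), with intensity trend and robust settings. Two-sided p-values were adjusted with the Benjamini-Hochberg method over those genes, at a threshold of 0.05, in 5 comparisons. The fit was run on simulated data with the same spread for every gene. That checks the code, not the error rate on these libraries.

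The genes and lists were chosen with earlier results of these data known, and lists were counted, not tested. All measured members are named; of every other list, up to 2 genes ranked first by p for the wild-type Salmonella effect and 2 for the interaction, or those whose level stands beside a result; and the 3 most alike genes per member. Alternatives were other scaling, pseudocounts and filter, the compared groups alone, replicate or letter terms, voom on recovered fragments, and each library left out. They are given for the measured members and for all tested genes together, not for list genes. Libraries of 1 group differed by far more than sampling noise, with a chi-square per gene of 17.6 or more between any pair. Promoter windows were matched by symbol. A few list genes are left unreported.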

Additional observations from a re-analysis of the deposited data

How the results depend on the processing

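The count of members past the threshold was 3 in wild-type hosts, and 2 to 5 with each library left out, the 5 being without library M-2 of wild-type Salmonella. In knockout hosts it was 0, and 0 to 1 with libraries left out, the 1 being Cxcr6 without library M-2 of knockout PBS. Between knockout and wild-type hosts under Salmonella it was 3, but 0 when only the groups compared were fitted and 0 to 5 with libraries left out: 0 without F-1 or M-1 of wild-type Salmonella or M-1 or M-2 of knockout Salmonella, and 5 without M-2 of wild-type Salmonella. Under PBS it was 0 in every fit, and for the interaction 0, or 0 to 1 with libraries left out. No member called in a comparison changed sign in any setting. The cause of these changes was not tested.

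Same-numbered libraries did not deviate together in every pair, so the replicate block is no paired design here. With the replicate block 4 members passed in wild-type hosts (Cxcl10 joined, adjusted p = 0.0240), 2 between hosts under Salmonella (Xcl1 at 0.0632), and 0 in the other comparisons. Over all tested genes it gave 4233, 45, 1040, 0 and 4 calls, against 4330, 94, 1099, 0 and 3 without it, for Salmonella in wild-type and in knockout hosts, the hosts under Salmonella and under PBS, and the interaction. With the groups compared alone these were 2438, 192 and 12 for the Salmonella effect in wild-type and in knockout hosts and for the hosts under Salmonella.
Voom gave 23 in knockout hosts, 572 between hosts under Salmonella and 0 for the interaction, and no filter gave 37 in knockout hosts. Leaving libraries out gave 2049 to 6220, 4 to 752, 10 to 4595 and 2 to 2236 calls in that order and for the interaction, each highest without library M-2 of wild-type Salmonella. With FPKM as deposited the median log2 fold change of all genes was -0.19 in wild-type hosts, against -0.01 in the main fit. Of the calls there 30.8% were higher, against 52.2%. Between hosts under Salmonella the median was 0.16, against 0.015, with 58.5% of calls higher against 37.5%. This setting gave 6 calls for the interaction. No member's call changed with it.

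Depth limits Cxcl13 under PBS, Xcl1 after Salmonella in wild-type hosts, and Cxcr3 and Cxcr6.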

Other observations

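The ratio of Cxcl10 to Cxcl9 within a library, both CXCR3 ligands, was 11.6, 21.0 and 14.8 in knockout hosts given Salmonella, against 6.25, 3.97 and 9.37 in knockout hosts given PBS. It was 10.6, 6.37 and 19.1 in wild-type hosts given Salmonella, against 8.05, 3.32 and 3.83 in wild-type hosts given PBS. The knockout groups do not overlap and the wild-type groups do, through library M-1 after Salmonella and library F-1 after PBS. The ratio was computed after the values of both genes were seen and was not tested.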
